A study of Mus musculus with 9 samples.

Results

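Expression of 38 genes of glucose transport, glycolysis, the pentose phosphate pathway and the hypoxia response was examined in long-term hematopoietic stem cells (LT-HSCs) sorted from transplanted mice. The genes were grouped by their known function, with earlier results of these data known. They are 38 of the 47643 genes counted and fall into glucose transport and glycolysis (26 genes), the pentose phosphate pathway (6 genes) and the hypoxia-inducible factor (HIF) pathway (6 genes). RNA was sequenced from 9 libraries, 3 per genotype. TKO donors were Pik3ca lox/lox;Pik3cb lox/lox;Pik3cd-/- with Mx1-Cre, and so lost the class IA PI3K catalytic isoforms P110α and P110β after induction and P110δ in the germline. δKO donors, littermates of the TKO donors, carried both floxed alleles and the Pik3cd deletion without Cre, and WT donors carried Mx1-Cre. All donors were C57BL/6 mice, and marrow of each genotype was given to lethally irradiated B6.SJL recipients 6 to 8 weeks old. After engraftment recipients of every genotype received pIpC, a double-stranded RNA, in 2 injections of 250 μg given 48 hours apart, and marrow was harvested 4 weeks later. The Mx1 promoter responds to interferon and is active throughout blood cells, so excision was not restricted to LT-HSCs. Marrow of the 7 recipients of a group was pooled before staining. Nothing in the labels says whether the 3 libraries of a genotype came from separate transplants, so p-values measure the spread between libraries, which may be technical in part. Xist, the RNA of the inactive X chromosome, was over 1000 CPM (counts relative to library size) in 5 libraries and under 100 CPM in 4, with both kinds in every genotype (WT 32.1, 5340 and 45.6 CPM), although marrow of a group was described as pooled and Xist is expressed in female cells.

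Glycolysis breaks glucose down to pyruvate in the cytosol, and the pentose phosphate pathway branches from its first intermediate to make NADPH and ribose for nucleotides. Quiescent LT-HSCs are known to rely on glycolysis in a marrow of low oxygen. Under low oxygen the factor HIF-1α is spared from hydroxylation by the Egln enzymes and from destruction through Vhl, and it raises many glycolytic genes, while PI3K signaling is known to promote glucose uptake and glycolysis through AKT and mTOR.

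HIF binds DNA at sites whose core is often ACGTG, the only form searched here. Slc2a1 was higher and Pgk1 lower in TKO than in all other libraries, and Egln3 encodes a HIF-induced enzyme that limits HIF. The 250 bases before the RefSeq start of transcription are given for each of these genes. Each is written 5′ to 3′ on the strand of the gene (GRCm38.p6), with ACGTG or its reverse complement CACGT in capitals. Slc2a1 lies on the plus strand at chr4:119108495-119108744, Pgk1 on the plus strand at chrX:106186850-106187099 and Egln3 on the minus strand at chr12:54203875-54204124.
Slc2a1: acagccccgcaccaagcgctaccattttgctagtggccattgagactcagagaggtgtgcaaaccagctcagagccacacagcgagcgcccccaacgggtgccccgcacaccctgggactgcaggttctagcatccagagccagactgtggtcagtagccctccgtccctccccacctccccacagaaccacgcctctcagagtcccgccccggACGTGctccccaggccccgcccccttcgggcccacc
Pgk1: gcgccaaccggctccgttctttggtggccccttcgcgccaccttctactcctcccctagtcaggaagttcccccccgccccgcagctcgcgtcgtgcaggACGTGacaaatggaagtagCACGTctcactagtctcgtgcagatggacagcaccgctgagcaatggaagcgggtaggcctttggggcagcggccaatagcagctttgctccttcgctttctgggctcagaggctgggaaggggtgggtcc
Egln3: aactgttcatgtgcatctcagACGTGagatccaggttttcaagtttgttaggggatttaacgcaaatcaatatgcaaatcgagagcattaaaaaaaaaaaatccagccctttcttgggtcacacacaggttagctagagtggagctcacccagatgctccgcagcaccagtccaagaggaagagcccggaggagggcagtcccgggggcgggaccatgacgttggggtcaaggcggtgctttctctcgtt

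In the Slc2a1 window the capitals begin 36 bases before the start, in the Pgk1 window 150 and 131 bases before it, and in the Egln3 window 229 bases before it. RefSeq promoter windows, which run from 250 bases before to 50 bases after a start, were found for 36 of the 38 genes. At least 1 window with ACGTG on either strand was present for 22 of these 36 genes (61.1%), against 21.8% of the 27025 genes with a window. By window, the letters were in 20 of 39 (51.3%) for glucose transport and glycolysis, in 1 of 7 (14.3%) for the pentose phosphate pathway and in 4 of 5 (80.0%) for the HIF pathway, against 19.6% of all 32851 windows. A match of 5 letters describes the sequence and does not show binding, and other forms of the HIF core were not counted.

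Libraries held 31300343 to 60386097 counts, and all 38 genes passed the filter on low counts that left 18205 genes for testing. Levels are given as CPM, read counts relative to the TMM-scaled library size, and differences as log2FC, the fitted log2 fold change. The LT-HSC marker genes Kit, Ly6a, Slamf1, Procr, Mecom, Fgd5, Hlf, Tie1 and Hoxb5 were detected in every library. The summed level of the LT-HSC list was 1212 to 1414 CPM in WT, 1189 to 2581 CPM in δKO and 1657 to 2042 CPM in TKO, and all 10 of its genes had a log2FC above 0 between TKO and WT, 6 of them without overlap of the libraries (6.88% of all genes). The part of this shift in the results was not tested. Pik3cd was at 98.2 to 139 CPM in WT, 38.5 to 91.2 in δKO and 71.2 to 73.5 in TKO libraries, and Pik3cb at 25.5 to 33.9 CPM in TKO and 33.2 to 101 CPM in all other libraries. Pik3ca was at 68.0, 52.8 and 59.8 CPM in TKO and 65.0, 60.6 and 45.8 CPM in WT libraries, and so was not lower in TKO. Counts over whole genes do not show the loss of single exons. In the δKO group replicate 1 and in the TKO group replicate 2 stood apart from the other 2 libraries. Mitochondrial rRNA took 8.64% and 6.88% of the counts in TKO replicates 1 and 3, in which G6pdx was lowest, 9.63% in δKO replicate 1 and 14.4% to 17.1% in the other 6 libraries, and its part in the results was not tested. The library whose number differs between the labels and the count table is here called the unnumbered δKO library. Genes of myeloid granules were detected in every library in very unequal amounts. The sum of Mpo, Elane, Prtn3 and Ctsg, which encode proteins of the primary granules of neutrophil precursors, was 12392 CPM in WT replicate 1 and 11099 CPM in the unnumbered δKO library and ranged from 97.5 to 4629 CPM in the other 7. These 4 genes, chosen after their values were seen, are called primary granule genes. The other 6 neutrophil markers (S100a8, S100a9, Ltf, Camp, Ngp and Lcn2) ordered the libraries differently, with a sum of 8629 CPM in WT replicate 3, 1704 CPM in the unnumbered δKO library, 476 CPM in WT replicate 1 and 72.0 to 926 CPM in the remaining 6. The 10 marker genes of neutrophils and their precursors summed to 5555 to 12868 CPM in WT, 277 to 12803 CPM in δKO and 170 to 3413 CPM in TKO, and none of the 10 was at 0 in any library. Genes of dividing cells (10 genes, among them Mki67 and Top2a) summed to 2663 to 3331 CPM in WT, 2601 to 3949 CPM in δKO and 1882 to 2195 CPM in TKO libraries, so all TKO libraries lay below all others. In bulk RNA, fewer cells of a type and less RNA per cell cannot be told apart.

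TKO LT-HSCs had less G6pdx, Pgk1 and Aldoa and more Slc2a1 than every WT and δKO library, and most other genes of these pathways overlapped between genotypes. G6pdx was fitted at 0.428 of its WT level in TKO. All 6 pentose phosphate genes had a log2FC below 0 in TKO against both controls, with G6pdx the only one of them at an unadjusted p under 0.05, but with primary granule genes as a covariate Pgd, Pgls and Rpia were above 0 against WT (0.28, 0.47 and 0.03), and with dividing cell genes as a covariate all but G6pdx were above 0 against both controls. Ldha and Hif1a differed little between the genotype means. None of the 38 genes passed an adjusted p under 0.05 with more than 2-fold change in edgeR's quasi-likelihood test in any of the 3 comparisons, so single genes are described at an unadjusted p under 0.05 with the share of all tested genes beside their count.

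Between TKO and WT, 0 of the 38 genes were called (0.00549% of all 18205 genes) and 4 had an unadjusted p under 0.05, 0 of them higher and 4 lower in TKO (4.19% of all genes, 1.68% higher and 2.50% lower). These were Hk3, Aldoa, Eno1 and G6pdx. Between TKO and δKO, 0 genes were called (0% of all genes), and 8 had an unadjusted p under 0.05 (10.2% of all genes). Slc2a1 was higher (4.60% of all genes), and Aldoa, Tpi1, Pgk1, G6pdx, Egln1, Egln3 and Bnip3 were lower (5.56% of all genes). The count fell to 2 without TKO replicate 1 (6.62% of all genes in that fit), and to 3 without TKO replicate 3 (7.43%), with upper-quartile scaling (9.06%), with only the groups compared (5.55%) and with the replicate block (6.31%). Over 23 alternatives the unadjusted p was under 0.05 in 23 for Slc2a1, 22 for Pgk1, 19 for G6pdx, 13 each for Tpi1 and Egln3, 12 for Bnip3, 10 for Aldoa and 8 for Egln1. Between δKO and WT, 0 genes were called (0.00549% of all genes) and 0 had an unadjusted p under 0.05 in edgeR (7.01% of all genes, 3.65% higher and 3.36% lower). This count was 1 with DESeq2 on all 9 libraries (8.65% of all genes in that fit), 5 without the unnumbered δKO library (8.87%), 5 with the replicate number as a block (5.51%) and 9 with dividing cell genes as a covariate (9.78%). DESeq2 on all 9 libraries called 0 of the 38 genes in each comparison, where it called 0.649% of all genes between TKO and WT, 2.94% between TKO and δKO and 1.03% between δKO and WT, and limma on the normalized values also called 0, where it called 0.00549%, 0% and 0.00549% of all genes. DESeq2 on only the groups compared called 5 genes between TKO and WT, all lower in TKO (Hk3, Eno1, Pfkfb4, G6pdx and Pgd), where it called 3.04% of the 18879 genes it tested and 1.61% as lower, and 0 genes in the other comparisons (1.56% of all genes, 0.454% lower, between TKO and δKO and 1.05%, 0.758% lower, between δKO and WT).

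Libraries did not overlap between TKO and WT for 1 gene higher and 8 genes lower in TKO (6.88% and 7.47% of all genes). Between TKO and δKO this was so for 3 genes higher and 6 lower in TKO (6.98% and 4.74%), and between δKO and WT for 3 genes higher and 0 lower in δKO (4.13% and 7.39%). None of the 38 genes had all WT libraries below all others (0.840% of all genes) or above all others (1.20%). In TKO against WT, 24 of the 38 genes had a log2FC below 0 (48.8% of all genes). In TKO against δKO, 31 of the 38 were below 0 (52.8% of all genes). This count was 25 under upper-quartile scaling (45.5% of all genes), which moved the median of all genes by 0.14. It was 20 with the replicate block (48.8% of all genes), 25 without the unnumbered δKO library (48.6%), 24 with the primary granule covariate (45.8%) and 16 with the dividing cell covariate (50.5%), so the lean to lower values was lost under the block and the dividing cell covariate. The glycolysis median in this comparison, −0.39, was −0.0041 under the block and 0.42 with the dividing cell covariate. In TKO against WT 15 were below 0 with the dividing cell covariate (52.4%). In δKO against WT, 15 were below 0 (47.2% of all genes), and 21 under upper-quartile scaling (56.5%), which moved the median of all genes by −0.15, and 5 without WT replicate 1 (46.7%). The count was 24 with detected genes per library as a covariate (51.3%) and 23 with the replicate block (53.2%). It was 22 without the unnumbered δKO library (52.4%) and 22 with the dividing cell covariate (53.6%). The comparisons share libraries and are not independent of each other.

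**Figure D1:**
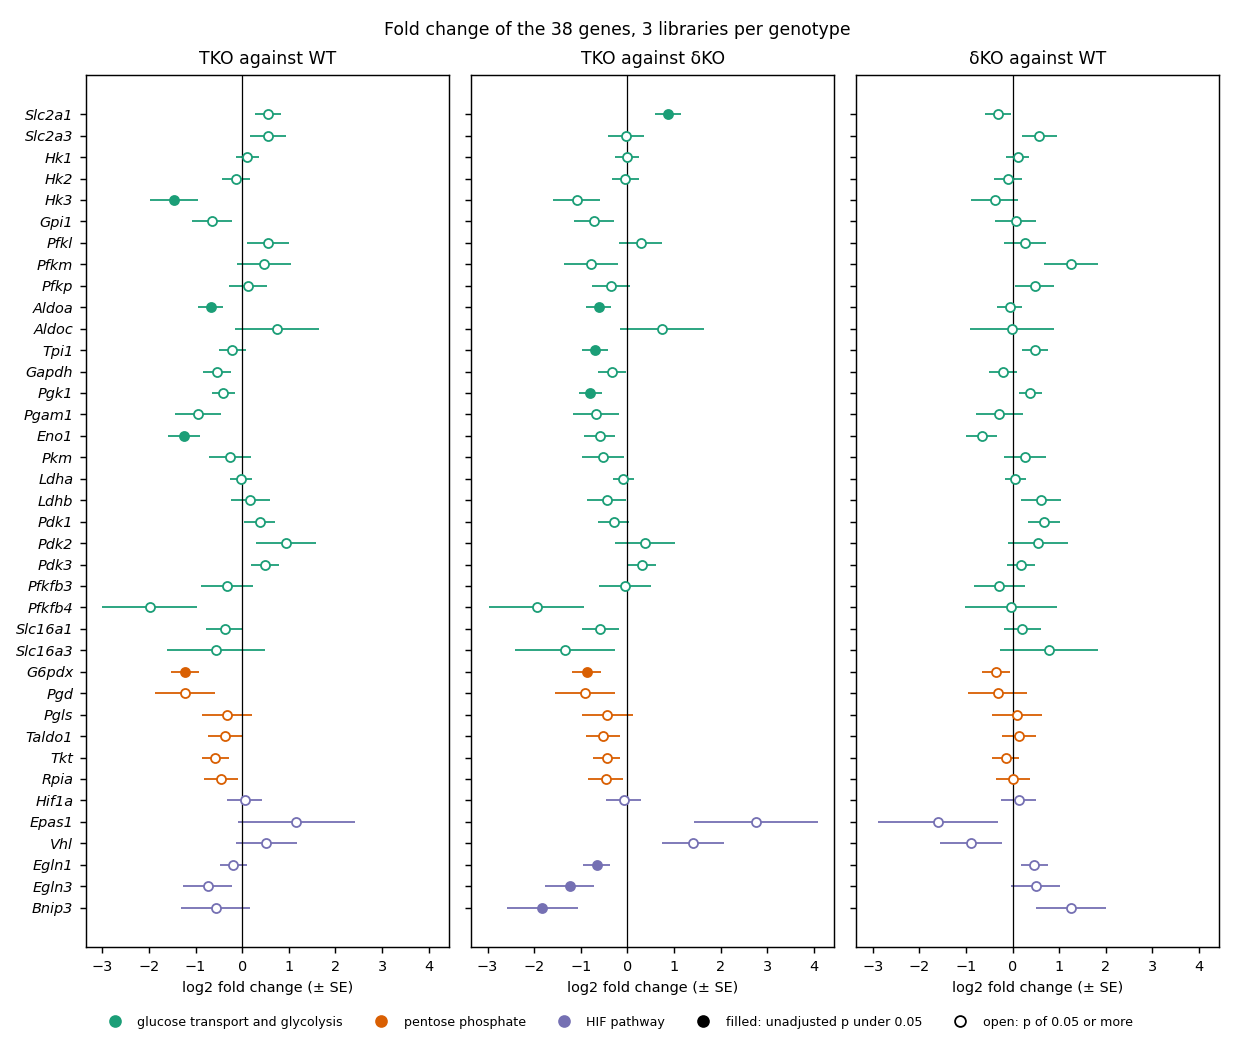
Fitted log2FC (point) and its standard error (bar) of each of the 38 genes in the 3 comparisons, one panel each (TKO with WT, TKO with δKO, δKO with WT), from edgeR with 3 libraries per genotype. Colors give the pathway, and filled points mark an unadjusted p under 0.05: 4 genes in the first panel, all to the left of 0, 8 in the second, of which only Slc2a1 is to the right, and 0 in the third.

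Glucose enters cells through facilitative transporters, of which Slc2a1 encodes GLUT1. Slc2a1 (ENSMUSG00000028645.11; mm10 chr4:119108711-119137983) was at 50.6, 54.0 and 55.3 CPM in WT replicates 1 to 3, at 45.5 and 32.7 CPM in δKO replicates 1 and 2 and 50.9 CPM in the unnumbered δKO library, and at 79.0, 88.3 and 67.7 CPM in TKO replicates 1 to 3. All TKO libraries were above all 6 others, a pattern shared by 2.12% of tested genes, while the WT and δKO libraries overlapped. Slc2a1 had a log2FC of 0.86 against δKO (standard error 0.275, edgeR with Benjamini-Hochberg adjusted p = 0.465) and 0.56 against WT (standard error 0.274, edgeR adjusted p = 1.00). The former lay between 0.70 and 1.10 over all alternatives, with an unadjusted p under 0.05 in 23 of 23 and an adjusted p of 0.0437 with DESeq2 on all 9 libraries. Slc2a3, which encodes GLUT3, ranged from 126 to 277 CPM in WT, 189 to 477 CPM in δKO and 222 to 332 CPM in TKO, and the groups overlapped. Per kilobase of exon Slc2a3 was the more abundant transporter in every genotype, at 27.1 CPM per kb in WT and 39.6 in TKO, against 15.2 and 22.3 for Slc2a1.

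Hexokinases trap glucose as glucose 6-phosphate. Hk3, the isozyme known from granulocytes, was at 165, 79.2 and 78.7 CPM in WT replicates 1 to 3, at 40.5, 55.2 and 152 CPM in δKO replicate 1, δKO replicate 2 and the unnumbered δKO library, and at 32.0, 56.1 and 28.6 CPM in TKO replicates 1 to 3. The TKO libraries were below all WT libraries and overlapped with δKO. Relative to WT, Hk3 in TKO had a log2FC of −1.47 (standard error 0.510, edgeR adjusted p = 1.00), which was −1.02 without WT replicate 1, where the unadjusted p no longer passed 0.05. Hk1 (113 to 142, 113 to 180 and 125 to 161 CPM in WT, δKO and TKO) and Hk2, the insulin-responsive isozyme, did not separate the genotypes. Hk2 was at 131, 84.5 and 98.7 CPM in WT, 78.7, 78.3 and 138 CPM in δKO and 81.2, 109 and 95.6 CPM in TKO libraries, in the same order of libraries.

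Per length, Hk3 made up 45.9% ± 7.77 (SD, n = 3) of the hexokinase transcripts in WT, 37.6% ± 13.9 in δKO and 24.2% ± 6.09 in TKO. These did not overlap between WT and TKO, where the lowest WT share was 39.2% and the highest TKO share 31.2%. An exact two-sided permutation test gave p = 0.1, the smallest p that 3 libraries against 3 allow, and 0.493 after Benjamini-Hochberg adjustment over 69 comparisons of isozyme shares. Among the 10 isozyme families, Pfkfb4 likewise held a smaller share of its sum with Pfkfb3 in TKO, 10.5% ± 2.07 against 27.7% ± 5.61 in WT. This sum left out Pfkfb1 and Pfkfb2, at 1.04 and 1.58 CPM per kb in TKO, against 0.891 for Pfkfb4. Aldoc held a larger share of the aldolases (with Aldoa) in TKO, 10.6% ± 2.72 against 4.29% ± 0.761 in WT. The shares of Pfkfb4 and Aldoc had the same exact p and adjusted p as that of Hk3. The shares of Pfkfb4 in δKO libraries, from 4.92% to 36.5%, covered those of WT and TKO. The Hk2 share in TKO, 33.0% to 41.6%, lay above all WT (26.7% to 30.3%) and all δKO libraries (29.1% to 31.8%). The Aldoc share in TKO (lowest 9.02%) was also above all δKO libraries (highest 8.59%). Hk2 and Aldoc had the same exact p and adjusted p against both controls. So had the shares of Hk1 in TKO against WT, Pfkl and Pdk3 in δKO against WT, and Hif1a and Epas1 in TKO against δKO.

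**Figure D2:**
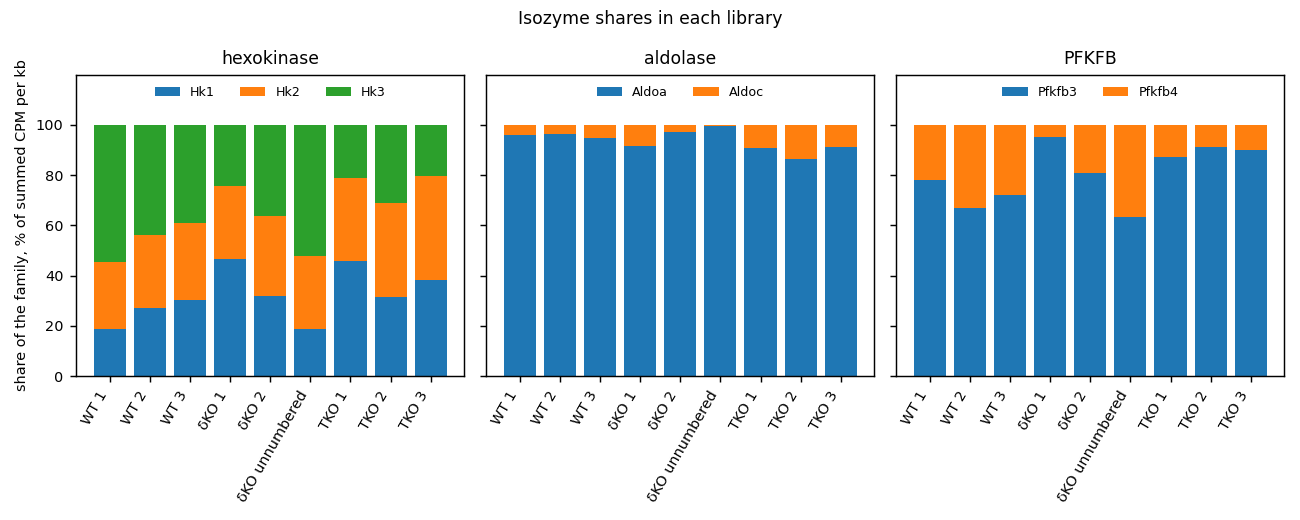
Share of each isozyme, in % of the summed CPM per kilobase of the isozymes shown, in each of the 9 libraries. Panels show hexokinases, aldolases and, of the PFKFB enzymes, Pfkfb3 and Pfkfb4 only. Each bar sums to 100%. The Hk3 share is 39.2% to 54.4% in WT and 20.2% to 31.2% in TKO libraries, with the δKO libraries between 24.3% and 52.1%.

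The next enzymes convert hexose phosphates and commit them to glycolysis. Gpi1, the isomerase, ranged from 241 to 498 CPM in WT, 217 to 612 CPM in δKO and 164 to 293 CPM in TKO. The phosphofructokinase Pfkp was at 117, 80.9 and 55.7 CPM in WT, 82.0, 71.0 and 199 CPM in δKO and 104, 67.5 and 105 CPM in TKO libraries, with overlap in every comparison. Pfkl ranged from 24.5 to 94.4 CPM over all libraries and Pfkm from 19.8 to 110 CPM, and the highest library of both was δKO replicate 1. Pfkfb3 and Pfkfb4 encode the enzymes that set fructose 2,6-bisphosphate, the activator of phosphofructokinase. Pfkfb4 was at 18.9, 14.5 and 18.1 CPM in WT, at 0.519, 8.39 and 41.4 CPM in δKO replicate 1, δKO replicate 2 and the unnumbered δKO library, and at 4.53, 4.16 and 4.34 CPM in TKO libraries. The TKO libraries lay closely together below WT, and the δKO libraries spread on both sides of them. Its log2FC between TKO and WT was −1.98 (standard error 1.02), and the adjusted p went from 1.00 in edgeR to 1.25e-08 with DESeq2 on only the groups compared and to 0.192 with edgeR on only these groups. Pfkfb3 (45.4 to 105 CPM in WT, 15.6 to 111 in δKO and 48.1 to 68.0 in TKO) overlapped between the genotypes.

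In the middle of the pathway Aldoa splits fructose 1,6-bisphosphate and Tpi1 interconverts the triose phosphates. Aldoa was at 225, 151 and 191 CPM in WT, 224, 135 and 185 CPM in δKO and 94.0, 131 and 130 CPM in TKO libraries. All TKO libraries were below all others, by a small margin to δKO replicate 2. Aldoa in TKO had a log2FC of −0.68 against WT (standard error 0.268, edgeR adjusted p = 1.00) and −0.62 against δKO (standard error 0.268, edgeR adjusted p = 0.478), and leaving out single libraries took the unadjusted p past 0.05 in both. Tpi1 was at 121, 85.2 and 87.7 CPM in WT, 159, 124 and 127 CPM in δKO and 62.8, 115 and 75.9 CPM in TKO libraries, so that δKO stood above both other genotypes. Tpi1 in TKO had a log2FC of −0.70 against δKO (standard error 0.285, edgeR adjusted p = 0.465) and −0.21 against WT. Aldoc was low, at 0.885 to 23.6 CPM over all libraries.

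The payoff steps make ATP and NADH. Pgk1, the first ATP-forming enzyme (mm10 chrX:106187100-106203699), was at 84.9, 75.3 and 85.4 CPM in WT, 117, 85.7 and 118 CPM in δKO and 53.4, 61.7 and 69.8 CPM in TKO libraries. All TKO libraries were below all WT libraries, and all δKO libraries above WT, δKO replicate 2 by a small margin. Between TKO and δKO Pgk1 had a log2FC of −0.79 (standard error 0.248, edgeR adjusted p = 0.465), between TKO and WT of −0.41 and between δKO and WT of 0.38, the latter pair at an unadjusted p over 0.05. Against δKO it lay between −0.93 and −0.63 over all alternatives, with an adjusted p of 0.0361 with DESeq2 on all 9 libraries. Eno1, which makes phosphoenolpyruvate, was at 249, 142 and 146 CPM in WT, 94.4, 89.2 and 156 CPM in δKO and 75.2, 96.5 and 54.1 CPM in TKO libraries. TKO was below WT without overlap, and the unnumbered δKO library was the one δKO library at the level of WT. Compared with WT, Eno1 had a log2FC of −1.25 in TKO (standard error 0.336, edgeR adjusted p = 1.00), between −1.47 and −0.94 with each library left out, and of −0.66 in δKO (unadjusted p over 0.05).

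**Figure D3:**
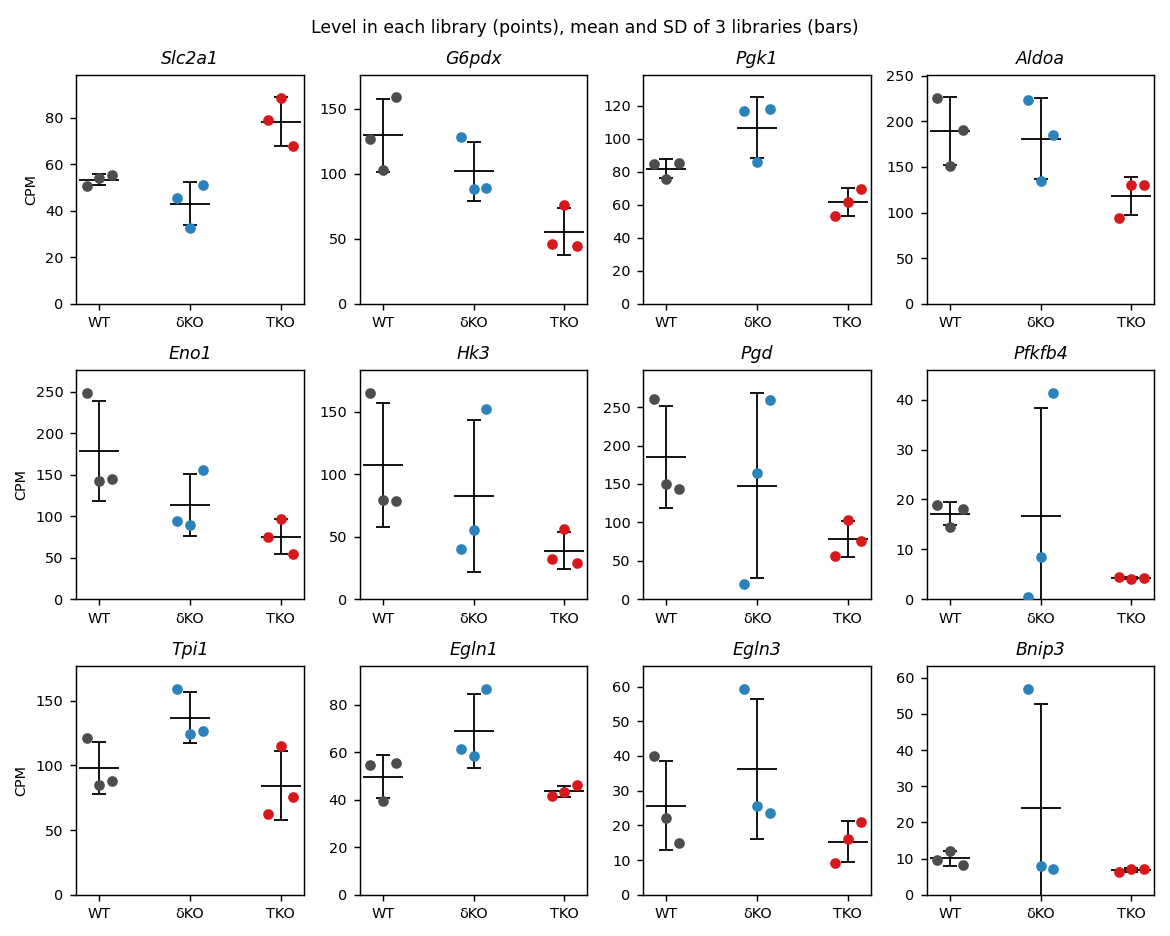
CPM of 12 genes in each library (points; WT gray, δKO blue, TKO red), with the mean and SD of 3 libraries per genotype as bars; the SD bars of Pfkfb4 and Bnip3 in δKO reach below 0 and end at the axis. The TKO points of Slc2a1 lie above, and those of G6pdx, Pgk1 and Aldoa below, all points of both other genotypes.

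Gapdh, Ldha and Pkm, which with Aldoa were the 4 most abundant of the 38 genes per length in WT, had an unadjusted p over 0.05 in each comparison. Gapdh had the highest level per length, at 219 CPM per kb in WT, 189 in δKO and 150 in TKO, and its log2FC between TKO and WT was −0.54 (standard error 0.303). Pkm, the last ATP-forming enzyme, was at 432, 227 and 287 CPM in WT, 196, 209 and 730 CPM in δKO and 299, 277 and 214 CPM in TKO libraries. Ldha, which turns pyruvate into lactate, was at 345, 327 and 349 CPM in WT, 404, 377 and 285 CPM in δKO and 287, 424 and 295 CPM in TKO libraries, with a log2FC of −0.02 (standard error 0.231) between TKO and WT. Ldha varied least of the 38 genes, by 1.49-fold between its lowest and highest library. Pgam1 ranged from 13.3 to 61.5 CPM and Ldhb from 16.3 to 52.9 CPM over all libraries, with overlap in each comparison. The lactate carriers Slc16a1 (36.4 to 79.1, 41.6 to 97.7 and 33.5 to 59.1 CPM in WT, δKO and TKO) and Slc16a3 (8.69 to 13.1, 0.319 to 42.9 and 5.41 to 9.33 CPM) also overlapped.

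Pyruvate dehydrogenase kinases hold pyruvate back from the mitochondria, and Pdk1 is a known HIF target. Pdk1 was at 42.2, 45.3 and 50.9 CPM in WT, 105, 65.2 and 50.9 CPM in δKO and 70.8, 41.4 and 67.6 CPM in TKO libraries, and Pdk3 at 33.8 to 42.5 CPM in WT, up to 48.4 CPM in δKO and 41.8 to 63.9 CPM in TKO. Neither separated TKO from the controls. Pdk2 was at 56.9 CPM in TKO replicate 1 and at 9.79 to 31.7 CPM in the other 8 libraries.

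The pentose phosphate genes had a median log2FC of −0.51 between TKO and WT and −0.49 between TKO and δKO, where the median over all tested genes was 0.02 and −0.06. The median between TKO and WT was −0.056 with the granule covariate and 0.42 with the dividing cell covariate. Between TKO and δKO it was 0.63 with the dividing cell covariate and −0.11 with the replicate number as a block. G6pdx, the rate-limiting enzyme that makes NADPH (ENSMUSG00000031400.10; mm10 chrX:74409483-74429194, sharing 418 exon bases with Ikbkg on the opposite strand), was at 127, 103 and 159 CPM in WT, 128, 88.5 and 88.7 CPM in δKO and 45.7, 76.3 and 44.4 CPM in TKO libraries. The highest TKO library was below the lowest of the 6 others. G6pdx, Pgk1 and Pdk3 are X-linked. For G6pdx and Pgk1 all TKO libraries lay below all 6 others. This fixes the same order among the 5 libraries with Xist over 1000 CPM and the 4 with Xist under 100 CPM, so the split is no further test. Pdk3 differed, with TKO replicate 3 at 63.9 CPM and the others with Xist under 100 CPM at 34.3 to 42.5 CPM. G6pdx in TKO had a log2FC of −1.22 against WT (standard error 0.306, edgeR adjusted p = 1.00) and −0.88 against δKO (standard error 0.304, edgeR adjusted p = 0.465). Against WT the unadjusted p was under 0.05 in 23 of 23 alternatives, over which the value lay between −1.53 and −1.05. Being below all 6 other libraries was shared by 3 of the 38 genes (7.89%) and by 1.69% of all tested genes.

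Pgd, the second NADPH-forming enzyme, was at 261, 150 and 143 CPM in WT, at 20.1, 164 and 260 CPM in δKO replicate 1, δKO replicate 2 and the unnumbered δKO library, and at 56.3, 103 and 76.4 CPM in TKO libraries. TKO lay below WT without overlap, and δKO ran from below all TKO libraries to just under the highest WT library. Between TKO and WT Pgd had a log2FC of −1.23 (standard error 0.647, unadjusted p over 0.05). Tkt, a transketolase of the non-oxidative branch, was at 142 to 210, 130 to 206 and 91.1 to 153 CPM in WT, δKO and TKO (log2FC −0.58 between TKO and WT, unadjusted p over 0.05). Pgls (21.8 to 31.9, 12.3 to 57.5 and 17.5 to 28.0 CPM), Taldo1 (33.9 to 35.6, 29.4 to 44.3 and 15.5 to 35.0 CPM) and Rpia (39.2 to 85.2, 44.7 to 74.2 and 33.4 to 57.1 CPM) overlapped in the same comparisons.

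Pgd and Eno1 lie on chromosome 4 at 0.482 and 0.534 Mb from Pik3cd, the gene deleted in the germline of δKO and TKO mice. Slc2a1 lies on the same chromosome at 30.5 Mb from it. Whether sequence near the Pik3cd deletion differs between the genotypes was not tested.

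Many of these genes were highest in the same libraries. In 16 of the 38 genes (42.1%) the 2 highest libraries were WT replicate 1 and the unnumbered δKO library, against 6.01% of all tested genes. These 2 libraries had the most primary granule transcripts, but not the most of the other 6 neutrophil markers, which were highest in WT replicate 3. They also had the most transcripts of dividing cell genes (3331 and 3949 CPM, next 3105 CPM). The T and NK lymphocyte markers, nearly all Nkg7, were highest in them too (232 and 195 CPM, next 109 CPM). So the primary granule, dividing cell and T and NK lymphocyte genes cannot be told apart in this pattern. These 16 were Hk2, Hk3, Gpi1, Pfkp, Gapdh, Pgam1, Eno1, Pkm, Pfkfb3, Pfkfb4, Slc16a1, Slc16a3, Pgd, Pgls, Tkt and Rpia, and so they included Hk3 and Eno1 of the genes with an unadjusted p under 0.05 in TKO against WT. With the log2 sum of the 4 primary granule genes as a covariate, log2FC between TKO and WT was −0.62 for Hk3, with an unadjusted p over 0.05, −0.90 for Eno1, −0.01 for Pfkfb4 and 0.28 for Pgd. With the same covariate G6pdx was at −1.26 and Aldoa at −0.68 against WT, and Slc2a1 at 0.87 and Pgk1 at −0.79 against δKO, and these and Eno1 kept an unadjusted p under 0.05. With the log2 sum of the dividing cell genes as a covariate, log2FC between TKO and WT was 0.41 for Hk3, of the opposite sign, −0.29 for Eno1, −0.68 for Aldoa and −1.40 for G6pdx, and between TKO and δKO 1.08 for Slc2a1 and −0.76 for Pgk1. Of these 6 values, those of G6pdx and Slc2a1 had an unadjusted p under 0.05. Since all TKO libraries lay below all others in dividing cell genes, that list and the TKO genotype can hardly be told apart.

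**Figure D4:**
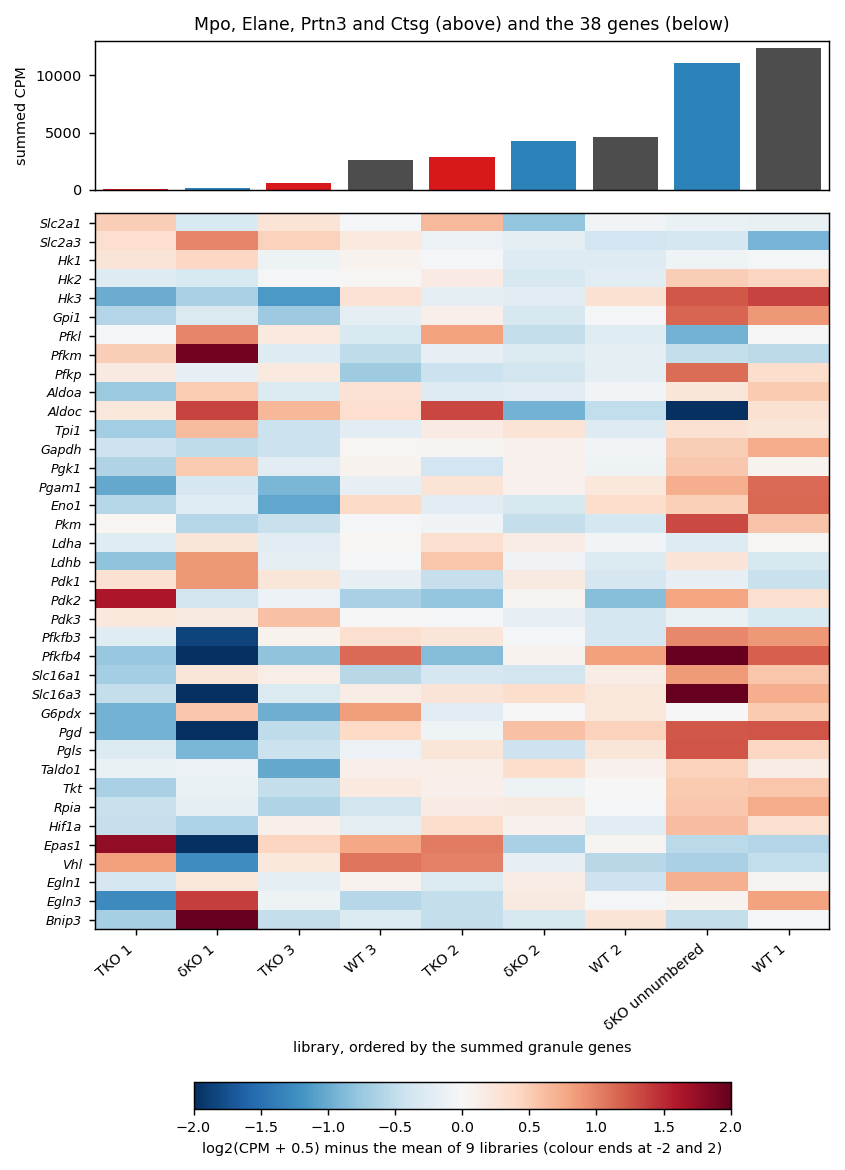
Libraries ordered by the summed CPM of Mpo, Elane, Prtn3 and Ctsg (bars above; WT gray, δKO blue, TKO red), and log2(CPM + 0.5) of each of the 38 genes minus its mean over the 9 libraries (colors below, red higher and blue lower). The 2 columns at the right, from the libraries with 11099 and 12392 CPM of these 4 genes, are red for most glycolytic and pentose phosphate genes.

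Hif1a, the oxygen-regulated subunit of HIF-1, was at 51.5, 35.5 and 35.9 CPM in WT, 26.9, 44.1 and 63.8 CPM in δKO and 29.9, 53.1 and 44.5 CPM in TKO libraries. Hif1a had a log2FC of 0.05 between TKO and WT (standard error 0.379). Epas1, which encodes HIF-2α, was near the lower limit of detection, at 1.13 to 3.65 CPM in WT, 0 to 1.18 CPM in δKO and 2.80 to 7.88 CPM in TKO, and TKO was above δKO in all libraries, at an unadjusted p over 0.05. Vhl, which marks HIF for destruction, was at 5.76, 5.48 and 17.9 CPM in WT, 3.19, 7.35 and 5.09 CPM in δKO and 14.9, 17.1 and 9.60 CPM in TKO libraries. TKO was again above δKO without overlap (log2FC 1.41, standard error 0.666, unadjusted p over 0.05) and overlapped with WT.

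Of the Egln prolyl hydroxylases, which sense oxygen, Egln1 and Egln3 were lower in TKO than in δKO, and Egln2, outside the 38 genes, was at 14.1 ± 11 CPM (mean ± SD, n = 3) in δKO and 21.8 ± 5.11 CPM in TKO (log2FC 0.63, standard error 0.668). Egln1 was at 54.6, 39.4 and 55.4 CPM in WT, 61.3, 58.6 and 86.8 CPM in δKO and 41.7, 43.1 and 46.2 CPM in TKO libraries (log2FC against δKO −0.66, standard error 0.285, edgeR adjusted p = 0.478). Egln3 was at 39.9, 22.2 and 15.0 CPM in WT, 59.4, 25.7 and 23.6 CPM in δKO and 9.06, 16.0 and 20.9 CPM in TKO libraries (log2FC against δKO −1.24, standard error 0.529, edgeR adjusted p = 0.473). Against WT both overlapped, with a log2FC of −0.19 for Egln1 and −0.74 for Egln3. Bnip3, a HIF target in mitophagy, was at 9.74, 12.2 and 8.21 CPM in WT, 57.0, 7.98 and 7.08 CPM in δKO and 6.16, 7.03 and 7.10 CPM in TKO libraries. All TKO libraries lay below all WT libraries, with a log2FC of −0.57 at an unadjusted p over 0.05. The log2FC of Bnip3 between TKO and δKO, −1.83 (standard error 0.762, edgeR adjusted p = 0.465), rested on δKO replicate 1, without which it was −0.16. Egln3 was at −0.69 without the same library and Egln1 at −0.46 without the unnumbered δKO library, where neither had an unadjusted p under 0.05.

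Further genes of the same pathways were listed by function. Of 35 tested genes of glycolysis and pyruvate metabolism outside the 38, 8.57% had an unadjusted p under 0.05 in TKO against WT (4.19% of all genes), among them 2 that were higher in TKO. In TKO against δKO it was 14.3% (10.2% of all genes), 3 higher and 2 lower, and in δKO against WT 11.4% (7.01% of all genes), 2 higher and 2 lower. None of the 35 was called in edgeR. DESeq2 on all 9 libraries called 2 between TKO and δKO (2.94% of all genes) and 0 in the other comparisons. DESeq2 on only the groups compared called 2 between TKO and WT (3.04%), 1 between TKO and δKO (1.56%) and 0 between δKO and WT (1.05%). The most separated was Ldhd, the mitochondrial enzyme that oxidizes D-lactate, at 5.19, 6.68 and 7.47 CPM in WT, 0.798, 3.86 and 1.03 CPM in δKO and 25.6, 21.1 and 15.1 CPM in TKO libraries. TKO was above and δKO below WT without overlap. Ldhd had a log2FC of 3.43 between TKO and δKO (standard error 0.739, edgeR adjusted p = 0.465), 1.67 between TKO and WT and −1.75 between δKO and WT. Pdp2, a phosphatase that activates pyruvate dehydrogenase, was at 34.0 to 53.6, 70.6 to 152 and 49.3 to 57.0 CPM in WT, δKO and TKO, with a log2FC of 1.20 between δKO and WT and −0.91 between TKO and δKO. Others at an unadjusted p under 0.05 were Slc16a7, lower in TKO than in δKO, Pfkfb2, higher in δKO than in WT with 48.7 CPM in the unnumbered δKO library, and the scarce gene Gpd1, higher in TKO than in WT. None of 7 tested genes of the pentose phosphate pathway and none of 10 tested HIF regulators outside the 38 had an unadjusted p under 0.05 in any comparison. Of 18 tested HIF targets, 0 were at an unadjusted p under 0.05 in TKO against WT and 1 was in TKO against δKO, Bhlhe40. It was at 148, 149 and 136 CPM in TKO and 48.4 to 86.6 CPM in δKO libraries (log2FC 1.01). At 85.7, 61.9 and 172 CPM, the WT libraries overlapped with TKO. In δKO against WT, 1 was higher (Pfkfb2) and 1 lower (Ankrd37, at 0 to 1.19 CPM in all libraries).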

How the data were processed

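Donor LT-HSCs were sorted by a gate negative for lineage markers, Flk2 and CD48 and positive for cKit, Sca1 and CD150, and cDNA was amplified with the Ovation RNA-Seq System V2. Counting is not stated to use strand, so overlapping antisense genes may share reads. The authors trimmed reads with Trim Galore 0.3.7, checked them with FastQC 0.11.4, aligned them to mm10 with STAR 2.5.1b, and deposited raw counts per gene. The authors also deposited a normalized signal, in which each column is a constant multiple of a count column (DESeq2 size factors). The unnumbered δKO count column carries the number 4, which no label has, and is such a multiple of normalized δKO replicate 3, but numbers were taken from names and never from values. Of 47643 gene identifiers, 47224 were found in GENCODE M21 without their version.

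Counts were filtered with filterByExpr (count minimum 10), scaled with TMM and fitted with edgeR 4.0.16 (R 4.3.3; quasi-likelihood, all 9 libraries, 1 mean per genotype, no block), which left 18205 genes. A call needed a Benjamini-Hochberg adjusted p under 0.05 over all tested genes and more than 2-fold change. Depth was 31300343 to 60386097 counts, and variation between libraries, not counting, set the precision. No 2 libraries of a genotype agreed within counting error. Members and lists were chosen with earlier results of these data known. Values in every library are given for genes with an unadjusted p under 0.05 in any comparison and for Slc2a1, Hk2, Pfkp, Pkm, Ldha, Pdk1, G6pdx, Hif1a, Vhl and Egln3; Pgd and Pfkfb4 were added after their values were seen. Genes outside the 38 are named where they had one of the 3 smallest p of their list in a comparison and under 0.05, and 1 such result, a gene lower in TKO than in WT, is not reported here. Alternatives used DESeq2 1.42.0, limma 3.58.1 on log2(value + 1), other scalings, filters and covariates, a replicate block, and each library left out. The pipeline was tested on simulated data. Coding sequences were compared with all transcripts with blastn 2.17.0+ (at least 95% identity over 150 bases). Copies were found for 10 of the 38 genes, and their counts came to 16.2% of those of Gapdh (73 copies), 11.1% of Bnip3, 6.08% of Eno1 and at most 1.54% of the others. How reads that match a gene and its copy were counted is not stated, so these genes are uncertain by an unknown amount.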

Additional observations from a re-analysis of the deposited data

How the results depend on the processing

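Of 2616 comparisons of a reported value with an alternative, 2462 stayed on the same side of the threshold within the allowed change, 146 moved beyond it, and 7 passed a threshold that the reported value missed. Among values with an unadjusted p under 0.05, 1 changed sign, Hk3 in TKO against WT, at 0.41 with dividing cell genes as a covariate. In 235 of the same 2616 comparisons the sign also differed, for values that had an unadjusted p of 0.05 or more. Covariates for primary granule genes and for dividing cells and the fit without δKO replicate 1 and WT replicate 3 were chosen after seeing the data. The cause of the changes was not tested. Shares in parentheses are those of all tested genes in the same fit. Genes at an unadjusted p under 0.05 in TKO against WT (4) were 8 with only the groups compared (9.09%), 7 with DESeq2 on these groups, which called 5 (9.93%), 7 with detected genes per library as a covariate (4.58%), 9 with the dividing cell covariate (9.13%), 9 without both named libraries (6.32%), and 2 without WT replicate 1 (2.46%) to 7 without δKO replicate 1 (7.61%) with each library left out. In TKO against δKO (8) they were 3 with upper-quartile scaling (9.06%), 3 with only the groups compared (5.55%), 2 with genes detected (5.27%), 15 with the dividing cell covariate (15.7%), and 2 without TKO replicate 1 (6.62%) and 3 without TKO replicate 3 (7.43%) to 11 without δKO replicate 1 (12.2%) with each library left out. In δKO against WT (0) they were 1 each with upper-quartile scaling (5.98%), no filter (7.59%), at least 10 counts in every library (5.55%), DESeq2 on all 9 libraries (8.65%) and genes detected (1.57%), 9 with the dividing cell covariate (9.78%), and 0 to 5, with 5 without the unnumbered δKO library (8.87%) and 2 without δKO replicate 1 (5.65%) or 2 (16.1%), with each library left out.

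Median log2 fold changes moved as follows. In TKO against WT, the glycolysis median (−0.18) was 0.22 with the dividing cell covariate and −0.29 to 0.02 with each library left out. The pentose phosphate median (−0.51) was −0.056 with the granule and 0.42 with the dividing cell covariate, and −0.78 to −0.39 with each library left out. The HIF pathway median (−0.07) was 0.28 and 0.30 with these covariates, and −0.19 to 0.06 with each library left out. In TKO against δKO, the glycolysis median (−0.39) was −0.10 with genes detected, −0.11 with the granule and 0.42 with the dividing cell covariate, and −0.63 to −0.070 with each library left out. The pentose phosphate median (−0.49) was 0.63 with the dividing cell covariate. The HIF pathway median (−0.37) was −0.58 with at least 10 counts in every library, −0.13 with the granule and 0.53 with the dividing cell covariate, and −0.46 to −0.10 with each library left out. In δKO against WT, the glycolysis median (0.15) was −0.27 and the pentose phosphate median (−0.06) −0.43 with genes detected. The HIF pathway median (0.30) was 0.037 with genes detected, 0.11 with the dividing cell covariate, −0.093 without both named libraries, and −0.24 (without δKO replicate 1) to 0.44 with each library left out.

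Libraries of different genotypes deviated together little, with correlations of −0.08 to 0.10 at the same replicate number and −0.095 to 0.047 at different numbers. The highest values, 0.0997, 0.0798 and 0.0748, were between libraries that share a number. All values were small, and they do not settle whether the numbers pair libraries. With the replicate number as a block, which leaves out the unnumbered δKO library, 6 genes were at an unadjusted p under 0.05 in TKO against WT (4.65%), 3 in TKO against δKO (6.31%) and 5 in δKO against WT (5.51%). Under the block the medians in TKO against δKO were −0.0041 for glycolysis, −0.11 for pentose phosphate and −0.11 for HIF pathway genes, and in δKO against WT −0.41 for pentose phosphate and 0.026 for HIF pathway genes. The common biological coefficient of variation was 0.805, and Epas1 was also limited by low counts.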
